A study of Mus musculus with 12 samples.

Results

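The cytochrome P450 enzymes of families 1 to 3 are described here in mouse liver, by subfamily, across 2 diets with and without dextran sulfate sodium (DSS). Members were the protein-coding genes whose symbol places them in Cyp1, Cyp2 or Cyp3, without Cyp2e1, Cyp2f2 and Cyp2c70, selected on their measured level, 1 FPKM or more in at least 3 of the 12 libraries. FPKM counts the sequenced fragments of a gene per length of its exons and per depth of its library, so levels of different genes can be set side by side. This gave 29 members among 57 genes considered, in a table of 54532 gene IDs. They fell into Cyp1a with 1 member, Cyp2a with 2, Cyp2c with 11, Cyp2d with 6, Cyp2j with 3, Cyp3a with 4, and Cyp2r1 and Cyp2u1 alone in their subfamilies; none of the 5 Cyp2b genes passed. The level used to choose the members is a description and is not tested, and the rule used no comparison between groups.

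All livers came from wild-type C57BL/6J mice, in 4 groups of 3 libraries. HFD_DSS livers had the diet that the labels call HFD together with 2% DSS, CD_DSS livers had the diet called CD together with 2% DSS, and HFD and CD livers had each diet alone. The series title names a high-fat diet, and DSS, a polymer that injures the lining of the colon, is the usual agent for chemical colitis in mice. The question was how diet and colitis act on the liver. No source used here gives age, sex, length of feeding or the timing of DSS. Nor does one say that each library is a different mouse, and the spread behind every p-value may then be partly technical.

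Cytochromes P450 of families 1 to 3 are heme enzymes of the endoplasmic reticulum that add oxygen to drugs, toxicants, steroids, retinoids and polyunsaturated fatty acids, with electrons passed on by P450 oxidoreductase (Por). In liver they are made mostly by hepatocytes, many of them around the central vein, and their genes are known targets of the receptors AHR, CAR and PXR and of liver factors such as HNF4A. Lower P450 levels during inflammation are a textbook feature of the hepatic acute phase response. In bulk tissue, fewer cells of a type and less RNA per cell cannot be told apart.

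Depth was even, with 23388400 to 29414600 fragments a library recovered from the deposited values. From their own groups 3 livers stood apart on the first principal component of all genes tested, which held 43.3% of the variance. HFD 1 was at -2.90 and CD_DSS 1 at -4.76, while HFD_DSS 2 was at 7.64; the other 4 DSS livers lay between 21.7 and 30.9 and the other 5 livers without DSS between -21.7 and -19.2. The acute phase gene Saa1 had 191 FPKM in HFD_DSS 2, 9.14 FPKM in CD_DSS 1 and 579 FPKM in HFD 1, so that CD_DSS 1 was below every liver without DSS and HFD 1 was within the range of the DSS livers. Results are therefore given with and without these 3 where the counts changed. Xist reached at most 0.0113 FPKM and the Y-linked gene Ddx3y 8.62 to 14.7 FPKM, the pattern of male tissue in all 12 libraries. The hepatocyte markers Alb, Apoa1, Ttr, Serpina1c, Tat and Cps1 were all detected, summing to 25085 to 46413 FPKM in HFD_DSS livers and to 41193 to 45102 FPKM in CD livers.

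In the CD livers Cyp3a11 was the highest member in all 3 libraries, and in the HFD_DSS livers it ranked between 5th and 10th. Its place at the top was taken there by Cyp2d26, first in all 3 HFD_DSS libraries with 15.0% to 18.3% of the summed FPKM of the members, followed by Cyp2d9 and Cyp2d10 in each. Cyp1a2 ranked 7th to 18th in HFD_DSS livers, against 5th in the 3 HFD livers. Cyp2a5 ranked 22nd to 26th in HFD_DSS livers, 17th to 20th in CD_DSS livers, 19th in HFD livers and 16th in CD livers. Means over the 12 libraries ran from 1.03 FPKM for Cyp2d11 to 484 FPKM for Cyp3a11, and the neighbours Cyp3a11, Cyp2d26 and Cyp2d9, at 484, 464 and 458 FPKM, overlapped in their ranges.

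In some library 4 members were below 1 FPKM. Cyp2j9, just inside the rule, reached 1 FPKM in 4 libraries, Cyp2d11 in 5, Cyp2c55 in 8 and Cyp2c69 in 9. In the main fit below, none of the differences past the test concerns these 4 genes. Cyp2c55 and Cyp2c69 passed in some other settings, and all 4 enter the medians and the other counts of members. Just outside were Cyp2b10, the usual CAR target, with 1.66 FPKM in CD 1 and less than 1 in every other library, Cyp3a44 with at most 0.854 FPKM, Cyp1a1, the usual AHR target, with 0.132 to 0.697 FPKM, Cyp2c39 with 0.119 to 0.673 FPKM and Cyp2a4 with at most 0.563 FPKM. Of the 28 genes under the level rule, 9 had no fragment in any library.

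**Figure D1:**
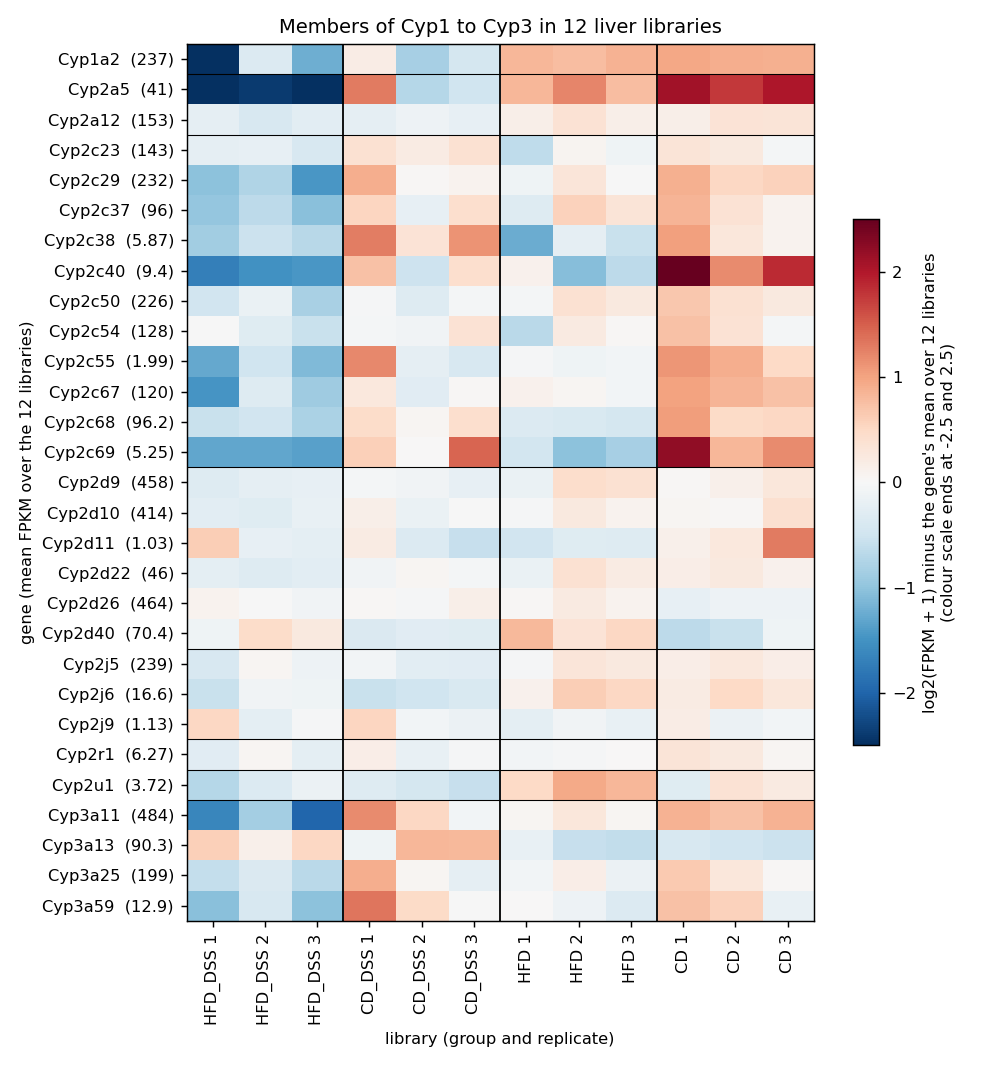
Each row is a member, with its mean FPKM over the 12 libraries in brackets, and each column is a library; colour shows log2(FPKM + 1) minus the mean of that gene, and black lines part groups and subfamilies. The HFD_DSS columns are blue for Cyp1a2, Cyp2a5, most Cyp2c genes and 3 of the 4 Cyp3a genes, the Cyp2d rows are pale, and Cyp3a13 runs the other way.

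DSS on the HFD diet gave the largest count of members past the test. Levels were compared by limma on log2(FPKM + 1) in one fit of the 12 libraries, and a gene was called at a Benjamini-Hochberg adjusted p under 0.05 over the 10806 genes tested. Between HFD_DSS and HFD livers 9 of the 29 members fell and none rose, where 4.83% of all genes tested were called, 3.10% lower and 1.73% higher. They were Cyp1a2, Cyp2a5, Cyp2a12, Cyp2c29, Cyp2c37, Cyp2c67, Cyp2j6, Cyp2u1 and Cyp3a11. The median log2 fold change of the 29 members was -0.52, against -0.01 for all genes tested, and 26 members had a negative value. In 19 members every HFD_DSS library lay below every HFD library, and in 2, Cyp2d11 and Cyp3a13, above; over all genes tested these shares were 14.7% and 12.4%.

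On the CD diet DSS moved fewer members past the test. Between CD_DSS and CD livers 4 members fell, Cyp2a5, Cyp2a12, Cyp2c40 and Cyp2j6, and 1 rose, Cyp3a13, where 4.80% of all genes tested were called, 2.79% lower and 2.01% higher. The median was -0.29, against -0.01 for all genes tested; 12 members lay wholly below the CD livers and 2, Cyp2d26 and Cyp3a13, wholly above, with 14.4% and 12.6% over all genes tested. The 2 DSS comparisons share no library, and 21 of the 29 members (72.4%) had a negative value in both, against 38.4% of all genes tested.

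Between the diets under DSS, HFD_DSS against CD_DSS, 2 members fell, Cyp2a5 and Cyp3a11, where 0.102% of all genes tested were called, 0.0648% lower and 0.0370% higher. The median was -0.36, where that of all genes tested was near 0, and 17 members lay wholly below the CD_DSS livers while 1, Cyp2d40, lay wholly above, with 8.97% and 7.53% over all genes tested. Without DSS, HFD against CD, no member was called by limma, where 0.00925% of all genes tested, 1 gene, was called. At an unadjusted p under 0.05, 11 members were lower and 3 higher there, and voom on the recovered fragments also called 0. Wholly below the CD livers lay 12 members, and 3, Cyp2d26, Cyp2d40 and Cyp2u1, lay wholly above, with 6.54% and 6.58% over all genes tested. The median was -0.24, against 0.01. Cyp2d11 is among these 12 and among the 11 lower members. It reached 1 FPKM in 3 CD libraries and 0 HFD libraries and would not have passed the level rule without the CD livers, so its place there is no support. No member was called for a difference between the DSS effects on the 2 diets, where 0.00925% of all genes tested, again 1 gene, was called. At an unadjusted p under 0.05 there were 7 members for that difference, and voom called 0. Cyp2d11 is among these 7 and is no support there either, for the same reason. The smallest adjusted p for the difference between the DSS effects was 0.897, for Cyp2a5, so no member is shown to answer DSS differently by diet.

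The counts moved with single libraries. For HFD_DSS against HFD the count was 1, 11 and 2 without HFD_DSS 1, 2 and 3, and 12, 1 and 2 without HFD 1, 2 and 3. The shares of all genes called were 0.324%, 8.13% and 0.342%, and 6.87%, 0.0833% and 1.08%. For CD_DSS against CD the count was 7, 0 and 0 without CD_DSS 1, 2 and 3, and 2, 0 and 0 without CD 1, 2 and 3. Here the all-gene shares were 11.8%, 0.777% and 0.583%, and 1.96%, 0.731% and 1.3%. For HFD_DSS against CD_DSS the count was 0, 4 and 0 without HFD_DSS 1, 2 and 3, and 1, 2 and 1 without CD_DSS 1, 2 and 3. There the all-gene shares were 0.102%, 0.259% and 0.0278%, and 0.13%, 0.139% and 0.0278%. With no filter on low values Cyp2a5, Cyp2a12 and Cyp2u1 remained called for HFD_DSS against HFD and 0 for the other 2 comparisons; with each comparison fitted alone Cyp2a5, Cyp2u1 and Cyp3a11 remained called for HFD_DSS against HFD, Cyp2j6 for CD_DSS against CD and 0 for HFD_DSS against CD_DSS. Among the 16 calls, the fall of Cyp2a5 between HFD_DSS and HFD livers was the one kept in all 6 such fits. Without the 3 livers that stood apart, limma called 14 members lower and 1 higher for HFD_DSS against HFD and 10 lower and 1 higher for CD_DSS against CD. It called 3 lower for HFD_DSS against CD_DSS and 0 for HFD against CD. Calls over all genes rose as well, to 18.8%, 17.8%, 0.731% and 0.0185% in the same order.

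**Figure D2:**
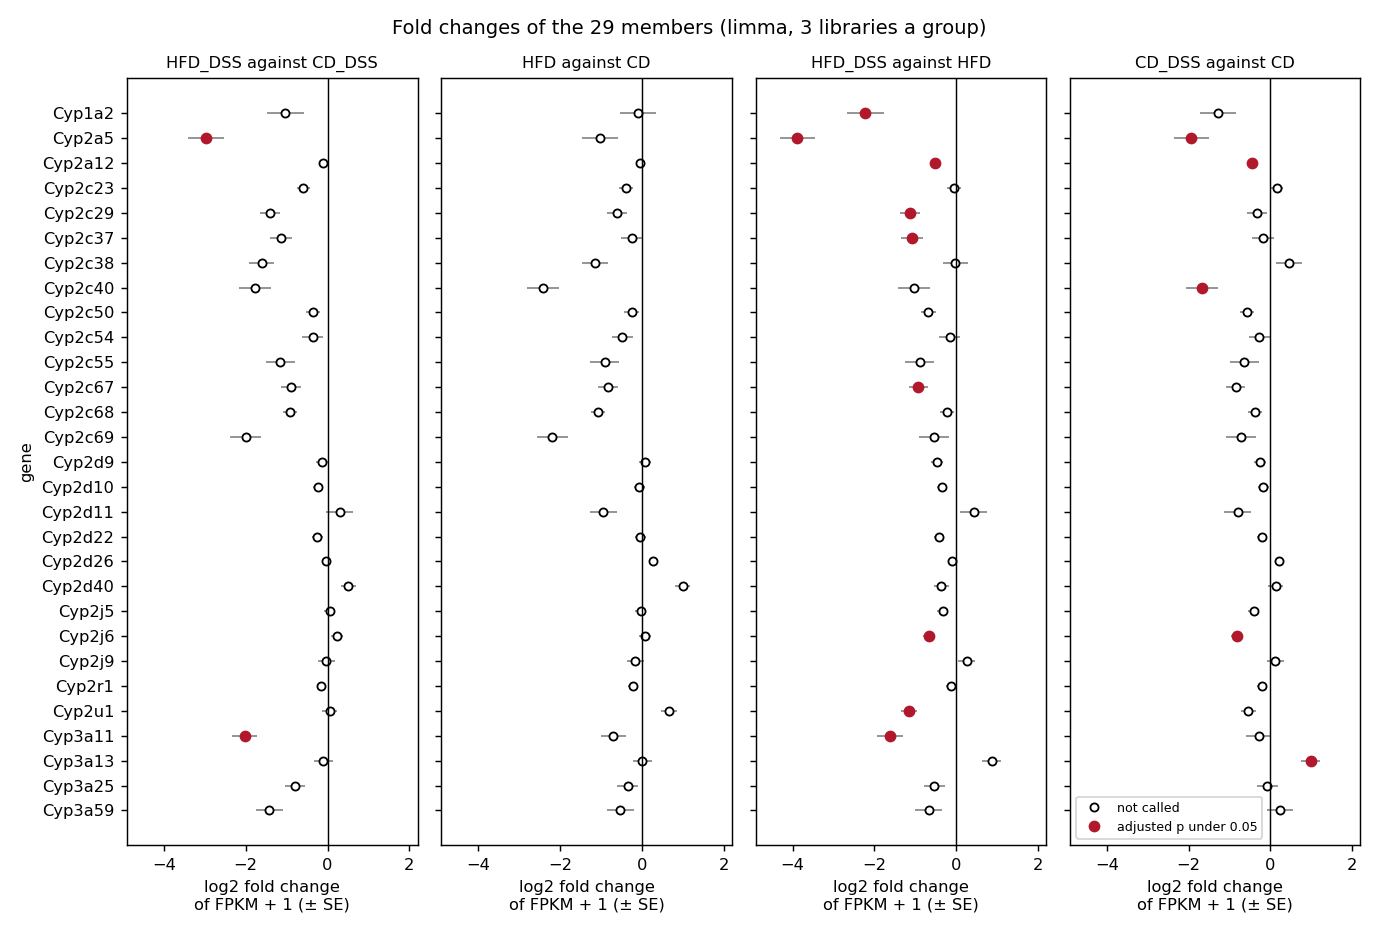
The x axes show log2 fold changes of FPKM + 1 with their standard errors for the 29 members in 4 comparisons of 3 libraries a group; filled points passed an adjusted p of 0.05. In HFD_DSS against HFD 9 points are filled, all left of 0, with Cyp2a5 at -3.88 the farthest; in HFD against CD none is filled.

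Cyp1a2 was the single Cyp1a member. It oxidises caffeine and aromatic amines and sits in pericentral hepatocytes (Cyp1a2, chr9:57676937-57683703, minus strand, mm10). It had 30.4, 152 and 81.8 FPKM in HFD_DSS livers, 219, 108 and 140 FPKM in CD_DSS livers, 343, 329 and 351 FPKM in HFD livers and 373, 363 and 357 FPKM in CD livers. Every DSS liver was below every liver without DSS, and HFD_DSS and CD_DSS livers overlapped. The log2 fold change was -2.22 ± 0.44 (SE, adjusted p = 0.0260) for HFD_DSS against HFD and -1.28 ± 0.44 (adjusted p = 0.114) for CD_DSS against CD. The first call was lost without HFD_DSS 1, HFD_DSS 3, HFD 2 or HFD 3, where the adjusted p reached up to 0.101. For CD_DSS against CD, Cyp1a2 was called lower when that comparison was fitted alone, with library weights and without the 3 livers that stood apart. Of 8 listed AHR targets outside the family, 5 were tested and 0 were called by limma in any of the 4 comparisons between groups. At most 4.83% of all genes tested were called in any of these. Ahr itself averaged 11.9 ± 3.8 FPKM in HFD_DSS livers, 5.96 ± 0.88 FPKM in CD_DSS livers, 8.01 ± 1.4 FPKM in HFD livers and 9.93 ± 0.95 FPKM in CD livers (SD, n = 3 each) and was not called.

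Cyp2a5 and Cyp2a12 lie 0.202 megabases apart, ends included, on chromosome 7 and moved on different scales. Cyp2a5, the coumarin hydroxylase of the mouse, had 1.25, 3.38 and 1.78 FPKM in HFD_DSS livers, 55.9, 13.1 and 15.4 FPKM in CD_DSS livers, 40.1, 53.0 and 38.2 FPKM in HFD livers and 98.2, 77.8 and 93.3 FPKM in CD livers. The HFD_DSS livers were below all the others, the CD livers above all the others, and CD_DSS 1 was the highest liver outside the CD group. The gene fell by 3.88 ± 0.43 on the log2 scale between HFD_DSS and HFD livers (limma, adjusted p = 0.00263), by 1.94 ± 0.43 between CD_DSS and CD livers (adjusted p = 0.0340) and by 2.97 ± 0.43 between HFD_DSS and CD_DSS livers (adjusted p = 0.0303). For HFD against CD its value was -1.03 ± 0.43 (adjusted p = 0.700) although the groups did not overlap. The difference between its DSS effects was -1.94 ± 0.61 (adjusted p = 0.897). For CD_DSS against CD the call was lost without any 1 library of either group other than CD_DSS 1, with an adjusted p of up to 0.139; without CD_DSS 1 it was -2.57 (adjusted p = 0.00135). The call for HFD_DSS against CD_DSS was lost without HFD_DSS 1, HFD_DSS 3 or CD_DSS 3, with an adjusted p of up to 0.151, and by voom. Of the 50-base words of its exons 37.0% also occur in other genes, 28.1% in Cyp2a4, which was under the level rule.

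Cyp2a12, a bile acid hydroxylase in mice, had 129, 114 and 126 FPKM in HFD_DSS livers, 129, 137 and 130 FPKM in CD_DSS livers, 167, 195 and 168 FPKM in HFD livers and 166, 191 and 188 FPKM in CD livers. All 6 DSS livers were below all 6 others. It fell by 0.52 ± 0.10 between HFD_DSS and HFD livers (adjusted p = 0.0227) and by 0.45 ± 0.10 between CD_DSS and CD livers (adjusted p = 0.0324) on the log2 scale. The first call was lost without HFD_DSS 1, HFD_DSS 3, HFD 2 or HFD 3, and the second without CD_DSS 2, CD_DSS 3, CD 2 or CD 3, with adjusted p of up to 0.107 and 0.123. It shared 20.1% of its 50-base words with Cyp2a22.

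Promoters were searched for 10 letter patterns of liver factors on both strands. RefSeq windows of GRCm38.p6, from 250 bases before to 50 bases after the start site, were found for 25 of the 29 members. The promoter of Cyp2a5 is shown because it is the member with the largest fall; its 250 bases before the start, chr7:26835089-26835338 on the plus strand, hold 1 match to the C/EBP pattern TTGCNNAA, in capitals, beginning 71 bases before the start.
Cyp2a5: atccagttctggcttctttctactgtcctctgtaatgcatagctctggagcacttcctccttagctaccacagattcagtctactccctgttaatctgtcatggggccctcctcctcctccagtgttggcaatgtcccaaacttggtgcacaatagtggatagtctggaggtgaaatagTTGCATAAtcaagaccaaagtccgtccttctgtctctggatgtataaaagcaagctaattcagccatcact
The C/EBP pattern stood in the windows of 7 members, Cyp2a5, Cyp2c37, Cyp2c40, Cyp2c67, Cyp2c69, Cyp2j9 and Cyp3a25, and in 10.8% of all 32851 promoter windows. The AHR core GCGTG stood in 3 members, Cyp2c68, Cyp2j9 and Cyp2r1, against 32.4% of all windows, and its longer form TNGCGTG in Cyp2c68, against 5.07%. No member window held the STAT5 pattern TTCNNNGAA (8.30% of all windows), the D box TTATGTAA (0.938%), either of 2 NF-kB sites (0.155% and 0.088%), the HNF1 site (0.061%) or the PXR and CAR repeat (0.012%), which says only that those letters are not in these windows.

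The Cyp2c subfamily had the most members, and its 11 genes had negative values in both diet comparisons, none past the test. All 11 had a negative log2 fold change in HFD against CD and all 11 in HFD_DSS against CD_DSS, comparisons that share no library, with medians of -0.83 and -1.14. By limma 0 were called in either, with 8 and 9 at an unadjusted p under 0.05; voom called 0 and 1 (Cyp2c29). The signs were the same under the 2 other scalings tried, and without HFD 1 Cyp2c37 alone changed sign in HFD against CD. On chromosome 19, 10 of the genes lie in a stretch of 1.11 megabases at chr19:39007019-40113950, and Cyp2c23 lies 3.89 megabases beyond it.

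The neighbours Cyp2c40 and Cyp2c69 had the lowest values of the 11 in both diet comparisons. With Cyp2c67 and Cyp2c68 they follow each other over 0.278 megabases, and Cyp2c67, Cyp2c68, Cyp2c40 and Cyp2c69 had -0.83 ± 0.24, -1.07 ± 0.16, -2.42 ± 0.39 and -2.19 ± 0.37 in HFD against CD, and -0.90 ± 0.24, -0.92 ± 0.16, -1.77 ± 0.39 and -2.00 ± 0.37 in HFD_DSS against CD_DSS. In HFD against CD the adjusted p of Cyp2c40 and Cyp2c68 was 0.115 each and that of Cyp2c69 was 0.120. Cyp2c38, outside these 4, had -1.61 in HFD_DSS against CD_DSS and -1.14 in HFD against CD, below Cyp2c67 and Cyp2c68 in both and with no overlap of groups in either. On the other side Cyp2c37, Cyp2c54 and Cyp2c50 had -1.14, -0.36 and -0.35 in HFD_DSS against CD_DSS and -0.24, -0.48 and -0.24 in HFD against CD; their groups overlapped, except those of Cyp2c37 in HFD_DSS against CD_DSS. Cyp2c67, Cyp2c68, Cyp2c40 and Cyp2c69 also share sequence: 60.3% of the 50-base words of Cyp2c40 occur in other genes, 54.3% of Cyp2c69, 52.8% of Cyp2c67 and 43.3% of Cyp2c68, with the largest share in Cyp2c69 for Cyp2c40 and in Cyp2c40 for the other 3. How fragments matching several of them were counted is not stated in any source used here, which leaves their separate values uncertain.

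**Figure D3:**
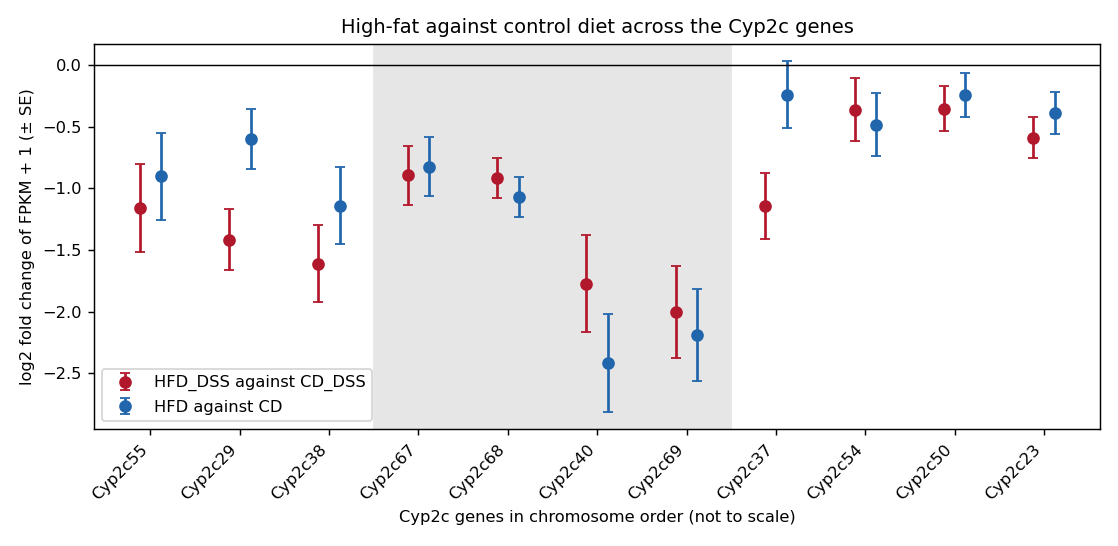
The 11 Cyp2c members stand in chromosome order, not to scale, with log2 fold changes of FPKM + 1 and their standard errors for HFD_DSS against CD_DSS and HFD against CD, 3 libraries a group. All 22 points lie below 0, and the grey block marks Cyp2c67, Cyp2c68, Cyp2c40 and Cyp2c69, where Cyp2c40 and Cyp2c69 reach -1.77 to -2.42.

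The 4 neighbours also shared promoter letters. The HNF4 pattern CAAAGTCCA stood in the windows of Cyp2c67, Cyp2c68, Cyp2c40, Cyp2c69 and Cyp3a11, 5 of the 25 members matched, and in 0.475% of all windows. A stretch of 70 bases on the minus strand is shown for the 2 of them that passed a test between groups, with the HNF4 and C/EBP letters in capitals.
Cyp2c67: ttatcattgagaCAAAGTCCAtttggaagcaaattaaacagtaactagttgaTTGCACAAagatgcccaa
Cyp2c40: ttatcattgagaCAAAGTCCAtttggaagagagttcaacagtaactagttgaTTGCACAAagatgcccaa
Over these 70 bases Cyp2c40 is identical to Cyp2c69 at 70 positions, to Cyp2c67 at 66 and to Cyp2c68 at 65, and Cyp2c68 lacks the C/EBP match there. The HNF4 letters begin 125 bases before the annotated start in Cyp2c67, 77 in Cyp2c68, 45 in Cyp2c40 and 75 in Cyp2c69.

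Cyp2c40, an arachidonic acid hydroxylase, had 1.02, 1.32 and 1.42 FPKM in HFD_DSS livers, 10.1, 3.65 and 7.81 FPKM in CD_DSS livers, 6.11, 2.17 and 3.23 FPKM in HFD livers and 38.9, 14.1 and 23.1 FPKM in CD livers. The CD livers were above and the HFD_DSS livers below all the others. It fell by 1.67 ± 0.39 on the log2 scale between CD_DSS and CD livers (adjusted p = 0.0393), a call lost without any 1 library of either group other than CD_DSS 1, with an adjusted p of up to 0.126. For HFD_DSS against HFD the value of Cyp2c40 was -1.02 ± 0.39 (limma, adjusted p = 0.148). Cyp2c67 had 38.4, 86.1 and 58.3 FPKM in HFD_DSS livers, 130, 88.8 and 111 FPKM in CD_DSS livers, 117, 112 and 103 FPKM in HFD livers and 218, 195 and 180 FPKM in CD livers. Here too the HFD_DSS livers were the lowest and the CD livers the highest, without overlap. It fell by 0.93 ± 0.24 between HFD_DSS and HFD livers (adjusted p = 0.0490), a call kept without HFD_DSS 2 but lost without any other 1 library of either group, with an adjusted p of up to 0.167. For CD_DSS against CD the value of Cyp2c67 was -0.85 ± 0.24 (limma, adjusted p = 0.0642). It was called lower there when that comparison was fitted alone, without CD_DSS 1, with library weights and without the 3 livers that stood apart.

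Cyp2c29, a pericentral epoxygenase of arachidonic acid, had 102, 123 and 75.3 FPKM in HFD_DSS livers, 392, 211 and 222 FPKM in CD_DSS livers, 192, 258 and 207 FPKM in HFD livers and 388, 298 and 311 FPKM in CD livers. The HFD_DSS livers were below all the others, and CD_DSS 1 was the highest of the 12. It fell by 1.14 ± 0.25 between HFD_DSS and HFD livers (adjusted p = 0.0306), and had -1.42 ± 0.25 in HFD_DSS against CD_DSS (adjusted p = 0.0666). Cyp2c37, which makes hydroxylated arachidonic acid, had 44.7, 56.0 and 42.7 FPKM in HFD_DSS livers, 130, 77.2 and 119 FPKM in CD_DSS livers, 70.5, 133 and 111 FPKM in HFD livers and 161, 114 and 93.9 FPKM in CD livers. The HFD_DSS livers were again the lowest 3. It fell by 1.08 ± 0.27 between HFD_DSS and HFD livers (adjusted p = 0.0458). Both calls were lost without HFD_DSS 1, HFD_DSS 3, HFD 2 or HFD 3, where the adjusted p reached up to 0.142 for Cyp2c29 and 0.187 for Cyp2c37, and under TPM scaling.

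Cyp2c55, known from intestine, was low throughout. It had 0.0693, 0.847 and 0.210 FPKM in HFD_DSS livers, 4.97, 1.24 and 0.984 FPKM in CD_DSS livers, 1.54, 1.41 and 1.48 FPKM in HFD livers and 4.56, 3.90 and 2.66 FPKM in CD livers. The HFD_DSS livers lay below all the others and CD_DSS 1 above all the others, and no comparison was called in the main fit. Cyp2c55 was called lower for CD_DSS against CD without CD_DSS 1, with library weights and without the 3 livers that stood apart. With library weights and without those 3 livers it was also called lower for HFD_DSS against HFD. Cyp2c38, an epoxygenase, ranged from 2.23 to 3.07 FPKM in HFD_DSS livers and from 6.46 to 13.4 FPKM in CD_DSS livers, with -1.61 ± 0.31 between them (adjusted p = 0.0783), and DSS gave -0.02 on the HFD diet and 0.45 on the CD diet. Cyp2c68 ranged from 51.5 to 63.5 FPKM in HFD_DSS livers, from 92.0 to 123 in CD_DSS livers, from 65.7 to 70.6 in HFD livers and from 125 to 187 in CD livers. Cyp2c69 ranged from 0.733 to 0.808 FPKM in HFD_DSS livers, against 6.82 to 19.7 FPKM in CD livers. Of the more abundant epoxygenases, Cyp2c50 averaged 157 ± 35 FPKM in HFD_DSS livers, 199 ± 22 in CD_DSS livers, 250 ± 37 in HFD livers and 297 ± 46 in CD livers, and Cyp2c54 averaged 102 ± 20, 132 ± 24, 116 ± 35 and 162 ± 43 FPKM in the same groups (SD, n = 3 each). Cyp2c23, better known from kidney and outside the cluster, averaged 116 ± 8.5 FPKM in HFD_DSS livers, 175 ± 12 in CD_DSS livers, 122 ± 29 in HFD livers and 158 ± 21 in CD livers; DSS gave -0.05 on the HFD diet and 0.15 on the CD diet.

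The 6 Cyp2d members, within 0.424 megabases at chr15:82370527-82794294, had none called in any comparison of the main fit. By limma 0 of 6 passed for HFD_DSS against HFD, where 3 had an unadjusted p under 0.05 and voom called 0; 5 had values between -0.11 and -0.46. Without HFD 1, Cyp2d9 and Cyp2d22 were called lower there. Cyp2d26 had 491, 461 and 436 FPKM in HFD_DSS livers, 470, 451 and 511 FPKM in CD_DSS livers, 471, 539 and 491 FPKM in HFD livers and 400, 423 and 421 FPKM in CD livers. Its CD livers were below all the others, by little. Cyp2d9, a testosterone hydroxylase higher in male mouse liver, had 362, 388 and 391 FPKM in HFD_DSS livers, 434, 424 and 392 FPKM in CD_DSS livers, 405, 611 and 585 FPKM in HFD livers and 462, 490 and 551 FPKM in CD livers. All 6 DSS livers were at or below 434 FPKM, and of the others only HFD 1 was. Its value was -0.46 ± 0.15 in HFD_DSS against HFD (adjusted p = 0.0920) and -0.26 ± 0.15 in CD_DSS against CD (adjusted p = 0.319).

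Cyp2d40 had the opposite sign from most members between the diets. It ranged from 62.2 to 92.5 FPKM in HFD_DSS livers and from 51.6 to 55.2 FPKM in CD_DSS livers, and from 85.3 to 119 FPKM in HFD livers against 42.1 to 62.0 FPKM in CD livers. Neither pair of groups overlapped, with 0.51 ± 0.18 (adjusted p = 0.311) and 1.00 ± 0.18 (adjusted p = 0.129). Cyp2d10 averaged 345 ± 14 FPKM in HFD_DSS livers and 461 ± 69 in CD livers, and Cyp2d22, the mouse gene most often set beside human CYP2D6, averaged 37.3 ± 1.1 and 51.5 ± 2.5 FPKM in the same groups (SD, n = 3 each). HFD_DSS livers were not set against CD livers in a test. Cyp2d11, higher in male liver, was at 0.263 to 3.65 FPKM over the 12 libraries and shared 37.2% of its 50-base words with other genes.

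Cyp2j6 fell with DSS on both diets, while the more abundant Cyp2j5 did not pass the test in the main fit. Cyp2j5 was called lower with DSS on both diets with library weights and without the 3 livers that stood apart. Cyp2j6, known from small intestine and liver, had 10.4, 14.9 and 14.6 FPKM in HFD_DSS livers, 10.4, 10.9 and 11.9 FPKM in CD_DSS livers, 17.1, 24.8 and 23.2 FPKM in HFD livers and 18.5, 22.9 and 19.6 FPKM in CD livers. All 6 DSS livers were below all 6 others. It fell by 0.67 ± 0.16 between HFD_DSS and HFD livers (adjusted p = 0.0375) and by 0.82 ± 0.16 between CD_DSS and CD livers (adjusted p = 0.0198). The first call was lost without HFD_DSS 1, HFD_DSS 3, HFD 2 or HFD 3 and under TPM scaling, and the second without CD_DSS 2, CD_DSS 3, CD 2 or CD 3, with adjusted p of up to 0.163 and 0.0856. Cyp2j5, an arachidonic acid epoxygenase, had 178, 245 and 215 FPKM in HFD_DSS livers, 225, 195 and 193 FPKM in CD_DSS livers, 231, 292 and 278 FPKM in HFD livers and 264, 283 and 266 FPKM in CD livers. CD_DSS livers lay below CD livers, and HFD_DSS and HFD livers overlapped, with -0.41 ± 0.13 (adjusted p = 0.101) and -0.33 ± 0.13 (adjusted p = 0.163). Cyp2j9 was at 0.759 to 2.04 FPKM over the 12 libraries.

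Cyp2u1, a fatty acid hydroxylase, was low but fell between HFD_DSS and HFD livers. It had 1.68, 2.48 and 2.99 FPKM in HFD_DSS livers, 2.49, 2.24 and 1.96 FPKM in CD_DSS livers, 5.18, 7.48 and 6.77 FPKM in HFD livers and 2.58, 4.63 and 4.11 FPKM in CD livers. The HFD livers were above all the others. The change was -1.15 ± 0.19 (adjusted p = 0.0127), lost without HFD_DSS 1 or HFD 2 with an adjusted p of up to 0.0706, and -0.54 ± 0.19 in CD_DSS against CD (adjusted p = 0.118). Of its exon bases 10.5% overlap the antisense gene 4930534D22Rik, and no source used here says whether the counting used strand. Cyp2r1, a vitamin D hydroxylase, ranged from 4.93 to 6.45 FPKM in HFD_DSS livers and from 6.42 to 8.04 FPKM in CD livers, groups not set against each other in a test. It was not called in any comparison of the main fit.

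Within Cyp3a the main drug and steroid enzyme Cyp3a11 fell between HFD_DSS and HFD livers and its relative Cyp3a13 rose between CD_DSS and CD livers. In the main limma fit no comparison called both, but several other settings called both for HFD_DSS against HFD. Cyp3a11, the usual PXR target, had 129, 224 and 101 FPKM in HFD_DSS livers, 913, 578 and 383 FPKM in CD_DSS livers, 419, 492 and 415 FPKM in HFD livers and 742, 671 and 737 FPKM in CD livers. The HFD_DSS livers were below all the others, and the CD_DSS livers spanned the range of both groups without DSS, with CD_DSS 1 the highest of the 12. It fell by 1.62 ± 0.31 between HFD_DSS and HFD livers (adjusted p = 0.0228) and by 2.03 ± 0.31 between HFD_DSS and CD_DSS livers (adjusted p = 0.0371). For CD_DSS against CD its value was -0.29 ± 0.31 (adjusted p = 0.626), and the difference between its DSS effects was -1.33 ± 0.44 (adjusted p = 0.958). The first call was lost without HFD_DSS 1, HFD_DSS 3, HFD 2 or HFD 3, and the second without HFD_DSS 1, HFD_DSS 3, CD_DSS 1 or CD_DSS 2 and under TPM scaling, with adjusted p of up to 0.105 and 0.160. Without the 3 livers that stood apart the values were -1.97 (adjusted p = 0.000582) and -2.03 (adjusted p = 0.00821).

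Cyp3a13, whose product is best known from intestine, had 127, 92.1 and 121 FPKM in HFD_DSS livers, 78.3, 150 and 149 FPKM in CD_DSS livers, 73.8, 56.1 and 54.9 FPKM in HFD livers and 63.7, 60.4 and 57.4 FPKM in CD livers. All 6 DSS livers were above all 6 others, with CD_DSS 1 and HFD 1 nearest to each other. It rose by 0.98 ± 0.23 between CD_DSS and CD livers (adjusted p = 0.0382), and had 0.87 ± 0.23 in HFD_DSS against HFD (adjusted p = 0.0540). The latter passed by voom, under TPM scaling, with a filter at a mean of 5 FPKM and with library weights. It also passed without HFD_DSS 2, without HFD 1 and without the 3 livers that stood apart. In all these settings Cyp3a11 was called lower there. The call for CD_DSS against CD was lost without any 1 library of either group other than CD_DSS 1, with an adjusted p of up to 0.156. None of its 50-base words occurs in another gene. Cyp3a13 lies 7.93 megabases from the stretch of 0.259 megabases at chr5:145854426-146113287 that holds Cyp3a11, Cyp3a25 and Cyp3a59.

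Cyp3a25 averaged 130 ± 15 FPKM in HFD_DSS livers, 239 ± 104 in CD_DSS livers, 188 ± 21 in HFD livers and 241 ± 53 in CD livers, and Cyp3a59 averaged 6.23 ± 2.0, 19.5 ± 10, 10.3 ± 1.3 and 15.8 ± 5.1 FPKM in the same groups (SD, n = 3 each). Both had their HFD_DSS livers below the CD_DSS and HFD livers, and neither was called in the main fit. Of the words of Cyp3a25, 25.2% occur also in Cyp3a59, and 26.8% of those of Cyp3a59 occur in Cyp3a25. The 250 bases before the start of the 2 Cyp3a genes that passed a test are shown to set them side by side, with matches to the patterns above in capitals. The window of Cyp3a11 is chr5:145879855-145880104 and that of Cyp3a13 chr5:137921620-137921869, both on the minus strand.
Cyp3a11: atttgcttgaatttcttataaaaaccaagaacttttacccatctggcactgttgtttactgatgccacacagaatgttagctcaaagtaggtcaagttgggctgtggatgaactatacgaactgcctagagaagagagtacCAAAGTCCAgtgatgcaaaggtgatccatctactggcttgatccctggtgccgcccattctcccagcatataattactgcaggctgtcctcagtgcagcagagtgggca
Cyp3a13: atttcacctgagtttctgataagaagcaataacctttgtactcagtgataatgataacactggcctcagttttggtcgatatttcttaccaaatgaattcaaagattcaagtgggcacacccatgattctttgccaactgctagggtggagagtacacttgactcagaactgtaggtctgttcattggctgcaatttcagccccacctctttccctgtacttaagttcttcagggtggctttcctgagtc
Cyp3a11 holds the HNF4 letters 109 bases before its start, and Cyp3a13 holds none of the patterns searched.

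**Figure D4:**
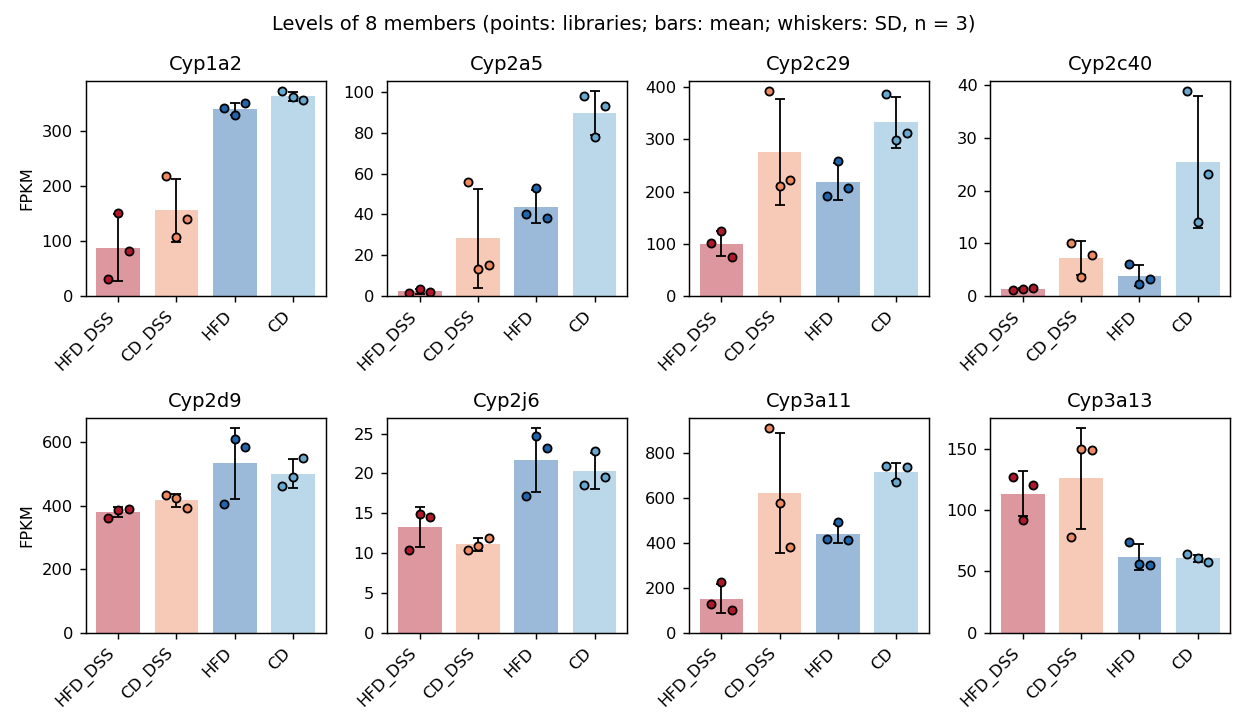
Bars show mean FPKM, whiskers the SD of 3 libraries and points the libraries of 8 members, with groups from left to right HFD_DSS, CD_DSS, HFD and CD; axes start at 0. Cyp2a5 is near 0 in the 3 HFD_DSS livers, CD_DSS 1 stands high for Cyp2a5, Cyp2c29 and Cyp3a11, and Cyp3a13 is higher in all DSS livers.

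Added up, the 29 members reached 2645 to 3072 FPKM in HFD_DSS livers, 3689 to 4806 in CD_DSS livers, 3768 to 4613 in HFD livers and 4738 to 5190 in CD livers. The HFD_DSS livers lay below all the others, at 66.8% of the HFD mean and 68.5% of the CD_DSS mean, while CD_DSS livers were at 83.1% of the CD mean. The make-up of the sum differed as well. Cyp2d genes made up 42.7% to 49.4% of it in HFD_DSS livers, 30.2% to 37.4% in CD_DSS livers, 38.1% to 39.6% in HFD livers and 26.6% to 33.7% in CD livers. Cyp3a genes made up 13.0% to 15.3% in HFD_DSS livers, 18.7% to 28.7% in CD_DSS livers, 15.5% to 18.2% in HFD livers and 20.7% to 21.6% in CD livers. Cyp1a2 made up 1.13% to 4.95% in HFD_DSS livers and 2.91% to 4.57% in CD_DSS livers, against 7.14% to 9.09% in HFD livers and 7.19% to 7.65% in CD livers. The sum over the 29 members is led by the abundant genes, so the low Cyp2a5 and Cyp2c40 hardly count in it. In the Cyp2a sum Cyp2a5 does count, with a mean of 89.8 of 271 FPKM in CD livers and 2.14 of 125 FPKM in HFD_DSS livers.

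**Figure D5:**
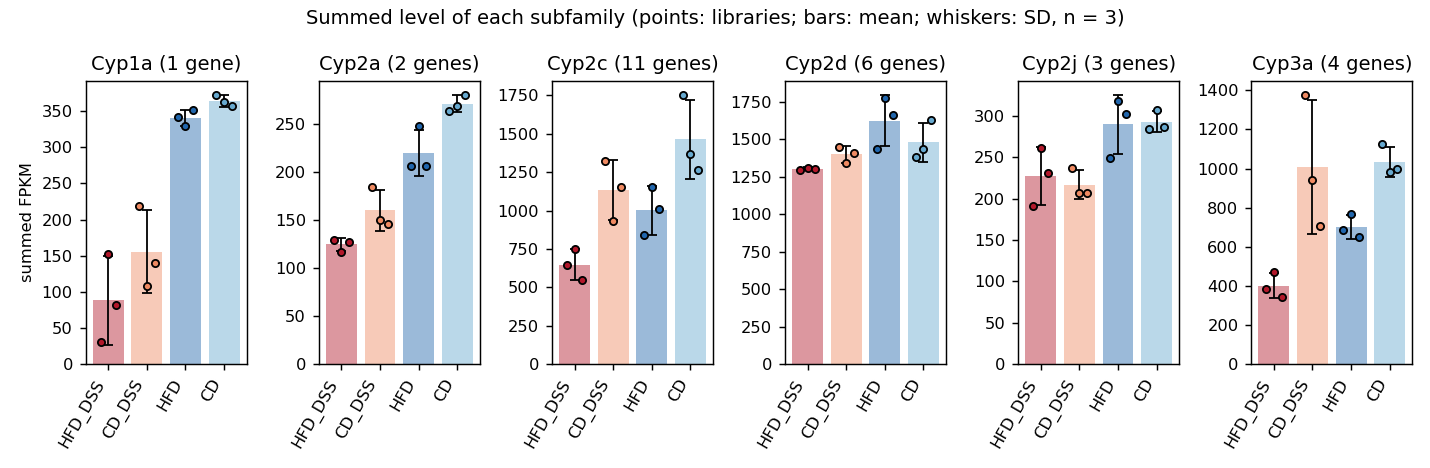
Each panel shows the summed FPKM of a subfamily, with points for libraries, bars for means and whiskers for the SD (n = 3), in the order HFD_DSS, CD_DSS, HFD and CD; axes start at 0. Cyp1a and Cyp2a are lower in all DSS livers, Cyp2c and Cyp3a are lowest in HFD_DSS livers, and Cyp2d sums stay between 1296 and 1779 FPKM.

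The 8 members known from pericentral hepatocytes, Cyp1a2, Cyp2a5, Cyp2c29, Cyp2c37, Cyp2c38, Cyp2c50, Cyp2c54 and Cyp3a11, had 5 called lower for HFD_DSS against HFD, 1 for CD_DSS against CD, 2 for HFD_DSS against CD_DSS and 0 for HFD against CD, where 3.10%, 2.79%, 0.0648% and 0.00925% of all genes tested were called lower. All 8 had a negative value in HFD_DSS against HFD, with a median of -1.11. The 7 other pericentral marker genes on the list, with Glul and Oat the highest, summed to 111 to 249 FPKM in HFD_DSS livers, 78.0 to 202 in CD_DSS livers, 491 to 516 in HFD livers and 532 to 616 in CD livers. Of the 6 of these that were tested, 2 were called lower for HFD_DSS against HFD, Glul and Rhbg, and 4 for CD_DSS against CD. For HFD_DSS against CD_DSS 0 of these 6 were called, with 4 positive and 2 negative values and a median of 0.31. The 8 pericentral members were all negative there, with a median of -1.28. For HFD against CD 0 of the 6 were called. The 6 periportal markers summed to 175 to 222 FPKM in HFD_DSS livers, 270 to 338 in CD_DSS livers, 278 to 392 in HFD livers and 302 to 355 in CD livers. Of them 3 were called lower for HFD_DSS against HFD, Hal, Cdh1 and Gls2, and for CD_DSS against CD Gls2 was called lower and Hsd17b6 higher. The 13 acute phase genes summed to 15540 to 38345 FPKM in HFD_DSS livers and 10167 to 27625 in CD_DSS livers, against 6885 to 15446 in HFD livers and 7159 to 8642 in CD livers. The 7 Kupffer cell and macrophage markers summed to 216 to 322 FPKM in HFD_DSS livers, 161 to 319 in CD_DSS livers, 155 to 229 in HFD livers and 134 to 182 in CD livers. The pericentral sum was lower in all DSS livers than in all the others. None of the genes on these 4 lists was at 0 in all libraries, and their part in the members' changes was not tested.

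Of 11 members or relatives known as higher in female mouse liver, Cyp2c40 and Cyp2c69 alone passed the level rule, and of the 3 known as higher in males, Cyp2d9, Cyp2d11 and Cyp2u1, all 3 did. Cyp2c40 and Cyp2c69 had negative values in all 4 comparisons between groups, with Cyp2c40 called for CD_DSS against CD. Of the 3 male-higher genes, 1 was negative in HFD against CD, where Cyp2d9, Cyp2d11 and Cyp2u1 had 0.07, -0.94 and 0.66, 1 in HFD_DSS against CD_DSS, 2 in HFD_DSS against HFD and 3 in CD_DSS against CD, with Cyp2u1 called for HFD_DSS against HFD. Cyp2d11 would not have passed the level rule without the CD livers. Its negative values in HFD against CD and CD_DSS against CD are therefore no support.

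Among 18 genes of P450 electron supply and heme handling, all tested, Por rose and Cyb5r3 fell for HFD_DSS against HFD. There 1.73% of all genes tested were called higher and 3.10% lower. None of the 18 was called in the other 3 comparisons, where 4.80% (CD_DSS against CD), 0.102% (HFD_DSS against CD_DSS) and 0.00925% (HFD against CD) of all genes were. Por, which feeds electrons to every member, averaged 63.6 ± 12 FPKM in HFD_DSS livers and 30.3 ± 1.8 FPKM in HFD livers (1.03 ± 0.19, adjusted p = 0.0216), and 63.5 ± 18 FPKM in CD_DSS livers and 53.4 ± 5.3 FPKM in CD livers (0.21 ± 0.19, adjusted p = 0.558). Cyb5r3, the cytochrome b5 reductase, averaged 73.5 ± 8.7 FPKM in HFD_DSS livers and 102 ± 12 FPKM in HFD livers (-0.47 ± 0.11, adjusted p = 0.0410). Without HFD_DSS 1, HFD_DSS 3, HFD 2 or HFD 3 both calls were lost, with adjusted p of up to 0.0796 for Por and 0.172 for Cyb5r3. Alas1, the first enzyme of heme synthesis, averaged 83.0 ± 53 FPKM in HFD_DSS livers, 32.1 ± 6.9 in CD_DSS livers, 55.6 ± 34 in HFD livers and 43.7 ± 18 in CD livers. Hmox1, which breaks heme down, averaged 24.5 ± 7.8, 21.2 ± 6.9, 15.8 ± 6.5 and 11.0 ± 1.6 FPKM in the same groups. Neither was called.

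Of 28 P450 regulators 25 were tested. In each DSS comparison 1 of the 25 was called, near the share of all genes tested. That share was 4.83% for HFD_DSS against HFD and 4.80% for CD_DSS against CD. The regulator called, the same on both diets and the only one in any comparison, was Hnf4a, higher with DSS. It averaged 219 ± 18 FPKM in HFD_DSS livers and 145 ± 8.7 FPKM in HFD livers (0.59 ± 0.11, adjusted p = 0.0228), and 226 ± 32 FPKM in CD_DSS livers and 160 ± 1.1 FPKM in CD livers (0.48 ± 0.11, adjusted p = 0.0385), calls lost in 4 and 5 of the 6 fits without 1 library, with adjusted p of up to 0.109 and 0.144. The PXR gene Nr1i2 had group means of 24.2 FPKM in HFD_DSS, 27.1 in CD_DSS, 25.0 in HFD and 24.7 in CD livers, and the CAR gene Nr1i3 3.57, 4.06, 3.56 and 3.68 FPKM. Rxra, their partner, averaged 119 ± 7.3 FPKM in HFD_DSS livers and 91.1 ± 6.6 in CD livers, Cebpa 132 ± 37 and 135 ± 13 FPKM, and the repressor Nr0b2 28.0 ± 8.5 and 39.8 ± 17 FPKM. HFD_DSS and CD livers were not set against each other in a test. None of these genes was called in the comparisons that were run in the main fit. All these values are transcript levels and not receptor activity.

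Of 22 listed CAR and PXR targets outside the family 19 were tested. For HFD_DSS against HFD, Ces2a and Ces2c fell and Por and Gadd45b rose, where 3.10% of all genes tested were called lower and 1.73% higher. For CD_DSS against CD, Gstm2 and Ces2c fell and Gadd45b rose, where 2.79% were called lower and 2.01% higher. Between the diets Ugt1a9, a glucuronidating enzyme, fell in both comparisons, where 0.0648% of all genes were called lower with DSS and 0.00925% without. It had 5.31 ± 1.3 FPKM in HFD_DSS livers and 23.7 ± 8.7 FPKM in CD_DSS livers (-1.93 ± 0.21, adjusted p = 0.00782), and 6.33 ± 0.67 FPKM in HFD livers and 26.1 ± 1.5 FPKM in CD livers (-1.89 ± 0.21, adjusted p = 0.0197). The second call was lost without any 1 library of either group, with an adjusted p of up to 0.134, and under TPM scaling; the first was kept in the 6 fits without 1 library, with an adjusted p of up to 0.0459. Ces2c, a carboxylesterase, averaged 1.57 ± 2.1 FPKM in HFD_DSS livers and 23.7 ± 6.2 FPKM in HFD livers, and 2.95 ± 2.5 FPKM in CD_DSS livers and 25.7 ± 11 FPKM in CD livers (-3.55 ± 0.56, adjusted p = 0.0121, and -2.85 ± 0.56, adjusted p = 0.0215). Ces2a averaged 62.5 ± 13 FPKM in HFD_DSS livers and 133 ± 18 FPKM in HFD livers (-1.08 ± 0.21, adjusted p = 0.0240). Gstm2, a glutathione transferase, averaged 8.79 ± 6.5 FPKM in CD_DSS livers and 24.7 ± 3.8 FPKM in CD livers (-1.59 ± 0.35, adjusted p = 0.0329). Gadd45b, a stress response gene, averaged 1.75 ± 0.42 FPKM in HFD_DSS livers and 0.364 ± 0.16 FPKM in HFD livers (1.01 ± 0.16, adjusted p = 0.0121), and 1.69 ± 0.57 FPKM in CD_DSS livers and 0.606 ± 0.025 FPKM in CD livers (0.72 ± 0.16, adjusted p = 0.0329). Each of these DSS calls of Ces2a, Ces2c, Gstm2 and Gadd45b was lost in 3 to 5 of the 6 fits without 1 library, with adjusted p of up to 0.131.

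Of the 3 genes left out by the rule, Cyp2e1, the ethanol-oxidising enzyme, was the most abundant of all these P450 genes, at group means of 2237 FPKM in HFD_DSS, 1849 in CD_DSS, 2439 in HFD and 2292 in CD livers, and was not called. Cyp2f2, a periportal enzyme, averaged 249 ± 31 FPKM in HFD_DSS livers and 520 ± 54 FPKM in HFD livers (-1.06 ± 0.14, adjusted p = 0.00883), and 317 ± 20 FPKM in CD_DSS livers and 553 ± 75 FPKM in CD livers (-0.79 ± 0.14, adjusted p = 0.0143), the first lost without HFD 2 and the second without CD_DSS 3, CD 2 or CD 3, with adjusted p of up to 0.0566 and 0.0698. Cyp2c70, which makes muricholic acids, averaged 225 ± 16, 359 ± 69, 266 ± 10 and 455 ± 62 FPKM in HFD_DSS, CD_DSS, HFD and CD livers and was not called.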

How the data were processed

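Total RNA from liver was sequenced with a SMARTER mRNA kit, per the labels' protocols, and mapped to mm10, per the submitters' processing notes; no source used here names the aligner, counter or strand setting. The authors deposited 1 table of FPKM per gene and library; 4 unnamed columns were not used. Gene IDs were matched to GENCODE M21 on the same build (99.9% matched). Genes with at least 1 FPKM in 3 libraries (10806) were tested with limma 3.58.1 (R 4.3.3), trended, on log2(FPKM + 1), 4 group means in one fit, Benjamini-Hochberg adjusted; fold changes on this scale understate those of low genes. Multiplying the deposited FPKM by exon length gave whole fragments (within 0.02) for 97.0% to 97.3% of low values, and voom was run on these. The members, lists and named-gene rule (highest member and called members of each subfamily, plus a short list of known genes) were chosen with earlier results of these data known. The labels do not say that replicate numbers pair the samples, and the main fit used no pairing.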

Additional observations from a re-analysis of the deposited data

How the results depend on the processing

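Member counts for CD_DSS against CD, HFD_DSS against HFD and HFD_DSS against CD_DSS were 5, 9 and 2, beside 4.80%, 4.83% and 0.102% of all genes. They became 0, 3 and 0 with no filter on low values, beside 0.606%, 0.502% and 0.0193%. When each comparison was fitted alone they became 3, 3 and 0, beside 2.04%, 1.13% and 0.037%. With library weights they became 12, 18 and 8, and 4 for HFD against CD, where the count was 0. Cyp2c40, Cyp2c68, Cyp2c69 and Cyp2d40 now passed for HFD against CD. Calls over all genes rose too with these weights, to 24%, 26.1% and 1.36%, and to 0.611% for HFD against CD. For HFD_DSS against CD_DSS the count was 4 with a filter at a mean of 5 FPKM (0.398% of genes) and 1 under TPM scaling (0.0925%). Chosen after seeing the data, 2 further settings gave these counts: without the 3 livers that stood apart 11, 15 and 3, and voom on the recovered fragments 5, 11 and 2. The first called 17.8%, 18.8% and 0.731% of all genes, and voom called 5.11%, 5.07% and 0.111%. Leaving out 1 library at a time gave 0 to 7, 1 to 12 and 0 to 4. It gave 0 in every fit for HFD against CD and for the difference between the DSS effects. The shares of all genes called ran from 0.583% to 11.8%, 0.0833% to 8.13% and 0.0278% to 0.259% for the first 3 comparisons. TPM scaling kept 5 members for CD_DSS against CD and gave 6 for HFD_DSS against HFD, 1 higher and 5 lower, beside 3.72% and 3.43% of all genes. Over all genes the share of calls that were higher went to 61.9% and 66.8%, against 41.8% and 35.8% in the deposited FPKM. The median of all genes moved by less than 0.1. No called member changed sign in any setting. The causes were not tested.

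Deviations of same-numbered libraries from their group means had correlations of -0.36 to 0.26. With 3 libraries a group these cannot exclude a pairing. The labels do not say that replicate numbers pair the samples, so the main fit had no replicate block. With the replicate block the counts were 2 for CD_DSS against CD, 7 for HFD_DSS against HFD, 0 for HFD_DSS against CD_DSS and 1 for HFD against CD. The all-gene shares were 2.68%, 2.57%, 0.0555% and 0.0278%. Members near 1 FPKM rest on few fragments, 3 for Cyp2c55 in its lowest library.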
